A study of Mus musculus with 36 samples.

Results

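The 10 genes described are part of the gastric mucous program, followed here through the histone marks of the pancreas: the mucins *Muc1*, *Muc5ac* and *Muc6*, the trefoil factors *Tff1*, *Tff2* and *Tff3*, the gastrokines *Gkn1* and *Gkn2*, the secretory chaperone *Agr2* and the tight junction gene *Cldn18*. They were chosen by name, for their place in gastric-type metaplasia, and are 10 of 21938 protein-coding genes of the annotation, all of which were found. Peaks of H3K4me3 (K4me3) and H3K27me3 (K27me3), called from ChIP-Seq, came from the whole pancreas of 6 mice, 3 of each of 2 genotypes, taken 22 days after the first tamoxifen gavage. A gene counted as called in 1 mouse if any peak of the mark overlapped the stretch within 3 kb of one of its transcription start sites (TSSs), and the value given is the number of base pairs (bp) of that stretch under peaks, with bases shared by the stretches of several TSSs counted once.

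All mice received tamoxifen at 2 to 4 months of age. Control mice (WT) are labelled wild type, and the study describes its controls as C57BL/6 mice or mice with Mist1creERT alone. EZ mice carry Mist1creERT/+EZH2[delta]SET, in which Cre removes the exons of *Ezh2* that encode the SET domain. Mist1creERT places Cre in 1 allele of the *Mist1* gene, which is active in acinar cells, so the other cells of the pancreas keep their *Ezh2* alleles while contributing chromatin to every library. No peak at *Ezh2* can show whether recombination took place.

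Metaplastic acinar cells and early pancreatic lesions are known for a mucous program that resembles the stomach. In the stomach, surface (pit) cells secrete the gel-forming mucin Muc5ac together with Tff1 and the gastrokines, and neck and gland cells secrete Muc6 together with Tff2. K4me3 marks the starts of genes that are active or ready for use, and K27me3, laid down by EZH2 in Polycomb repressive complex 2, marks silenced genes.

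Of the acinar marker genes, 14 of 14 had promoter K4me3 in every mouse, beside 57.4% of all protein-coding genes with K4me3 in all 6 mice. K27me3 was called at 5 of the 14 in WT replicate 2 and at 0 in the other 5 mice. The lists hold 17400 to 25886 K4me3 peaks and 21420 to 31274 K27me3 peaks, and carry no read count or height, so depth is unknown. WT replicate 2 had the fewest peaks of both marks and stood apart, with 9.77% of its K27me3 peaks over a K4me3 peak of the same mouse against 0.751% to 2.73% in the other 5 mice, and 5395 genes with promoter K27me3 against 2333 to 3423. Leukocyte markers with promoter K4me3 numbered 5 of 9 in WT replicate 2, against 1 or 2 in the other 5 mice, and duct markers 4 of 7 against 7 of 7. EZ replicate 2 had K4me3 at the 4 Y-linked genes examined (*Kdm5d*, *Uty*, *Ddx3y* and *Eif2s3y*), none at *Xist*, and 17 K27me3 peaks on the X chromosome. In the other 5 mice *Xist* had a peak, the Y-linked genes had none, and X peaks numbered 5637 to 7367. Sex by these calls was thus mixed in EZ and alike in the 3 WT mice.

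The 10 genes fell into 3 patterns, seen in the map of promoter values by mouse. *Muc1* and *Tff2* had K4me3 in 6 of 6 mice and no K27me3. *Gkn1* and *Gkn2* had no K4me3 and had K27me3 in 1 and 2 mice. *Muc5ac*, *Muc6*, *Tff1*, *Tff3*, *Agr2* and *Cldn18* had a peak of neither mark in any mouse, a pattern shared by 17.4% of all protein-coding genes.

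**Figure D1:**
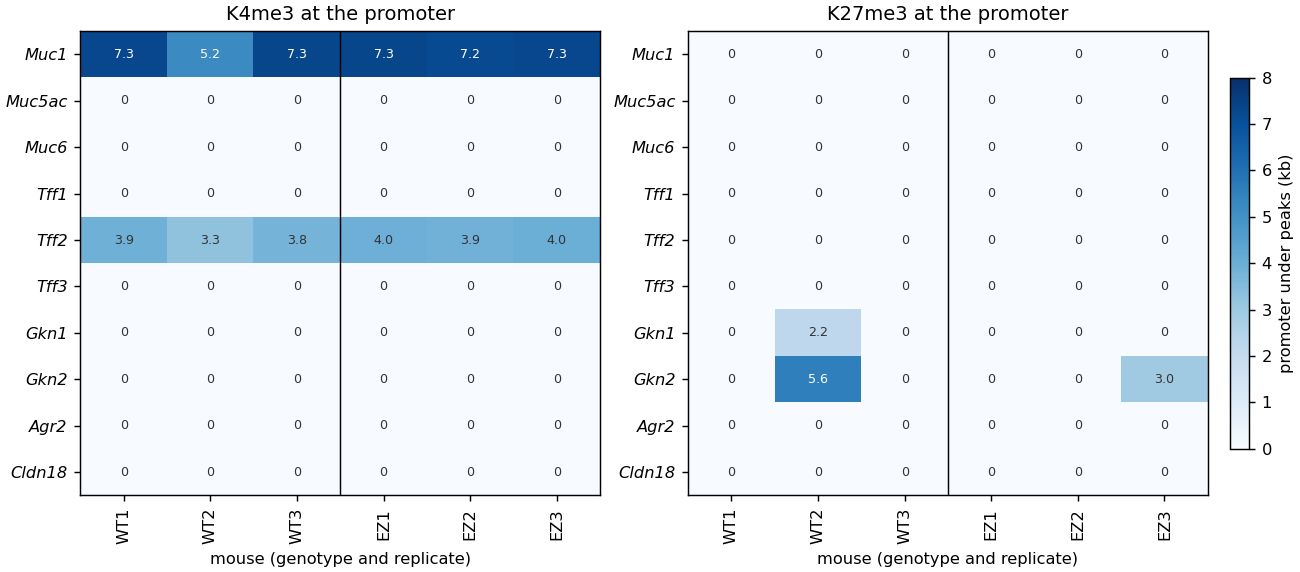
Length of the promoter stretch under K4me3 peaks (left) and K27me3 peaks (right), in kb, for the 10 genes (rows) in each of 6 mice (columns, by genotype and replicate). *Muc1* and *Tff2* are filled in every mouse on the left, and the right panel is filled only at *Gkn1* in WT2 and at *Gkn2* in WT2 and EZ3.

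In each genotype, 2 of 10 members had K4me3 in all 3 mice, and they were *Muc1* and *Tff2* both times. Among all protein-coding genes the share was 58.0% in WT and 60.8% in EZ. For K27me3, 0 of 10 members were called in all 3 mice of either genotype, beside 5.78% of genes in WT and 7.39% in EZ. The share of members with K4me3 is below that over all genes, and for K27me3 a count of 0 in 10 is near the share over all genes. No test was run on either.

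Promoter sequences are shown for 4 members, *Muc1* (K4me3 in every mouse), *Gkn2* (K27me3 in some), and *Agr2* and *Muc6* (neither mark). They are set together to show that promoters with a like number of CG dinucleotides can carry different marks. They are from RefSeq, build GRCm38.p6, each of 300 bases around the gene's start and read along its own strand, with each CG dinucleotide in capitals. *Muc1* is at chr3:89228806-89229105 on the plus strand, *Agr2* at chr12:35992675-35992974 on the plus strand, *Gkn2* at chr6:87373115-87373414 on the plus strand, and *Muc6* at chr7:141655344-141655643 on the minus strand.
Muc1: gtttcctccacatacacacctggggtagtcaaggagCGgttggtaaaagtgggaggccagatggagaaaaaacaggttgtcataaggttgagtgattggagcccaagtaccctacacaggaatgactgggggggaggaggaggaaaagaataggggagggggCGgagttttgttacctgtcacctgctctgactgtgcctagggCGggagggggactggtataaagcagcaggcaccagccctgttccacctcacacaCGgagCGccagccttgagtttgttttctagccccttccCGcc
Gkn2: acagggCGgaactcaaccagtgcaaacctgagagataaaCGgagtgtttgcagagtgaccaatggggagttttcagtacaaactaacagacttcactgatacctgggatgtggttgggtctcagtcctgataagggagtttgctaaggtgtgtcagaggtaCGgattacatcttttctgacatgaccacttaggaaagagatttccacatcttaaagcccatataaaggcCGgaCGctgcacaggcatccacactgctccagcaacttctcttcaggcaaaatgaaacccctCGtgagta
Agr2: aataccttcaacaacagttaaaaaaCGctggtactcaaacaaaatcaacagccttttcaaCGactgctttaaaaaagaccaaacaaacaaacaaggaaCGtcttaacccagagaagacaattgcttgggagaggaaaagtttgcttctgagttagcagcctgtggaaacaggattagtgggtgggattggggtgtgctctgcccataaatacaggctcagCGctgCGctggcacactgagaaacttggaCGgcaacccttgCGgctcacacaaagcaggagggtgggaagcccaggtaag
Muc6: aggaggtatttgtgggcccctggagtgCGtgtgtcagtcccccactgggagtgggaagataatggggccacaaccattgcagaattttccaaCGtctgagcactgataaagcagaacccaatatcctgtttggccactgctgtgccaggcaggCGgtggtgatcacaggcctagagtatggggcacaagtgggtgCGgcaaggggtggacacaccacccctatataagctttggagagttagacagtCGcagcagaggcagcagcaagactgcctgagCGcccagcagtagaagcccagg

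The 4 sequences carry nearly the same number of CG dinucleotides, 6 in *Muc1*, 6 in *Gkn2*, 7 in *Agr2* and 6 in *Muc6*, whatever the marks above them. The *Gkn1* promoter held 7, and those at the 2 *Cldn18* entries 9 and 10. Over all 32851 promoters of the table the median was 7, with quartiles of 3 and 20, so these members lie near the middle of the range. The ratio of observed to expected CG ran from 0.25 in *Muc6* to 0.45 at the first *Cldn18* entry, beside a median of 0.38. The letters TATAAA, searched on both strands, were in the *Muc1* and *Gkn2* sequences and in none of the other 5 member sequences, and 13.6% of all promoters hold them. *Tff1*, *Tff2*, *Tff3* and *Muc5ac* have no entry in the table.

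K4me3 was less frequent where CG was scarce. Of 3501 promoters with 6 to 8 CG, 24.7% had a K4me3 peak within 3 kb in all 6 mice, 15.8% in some and 59.5% in none. Of 6563 promoters with 24 or more, 88% had one in all 6. *Muc1*, *Agr2*, *Gkn1*, *Gkn2* and *Muc6* fall in the same bin of 6 to 8 CG, *Muc1* with a peak in 6 mice and the other 4 with none, which is a description of 5 promoters and no test.

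**Figure D2:**
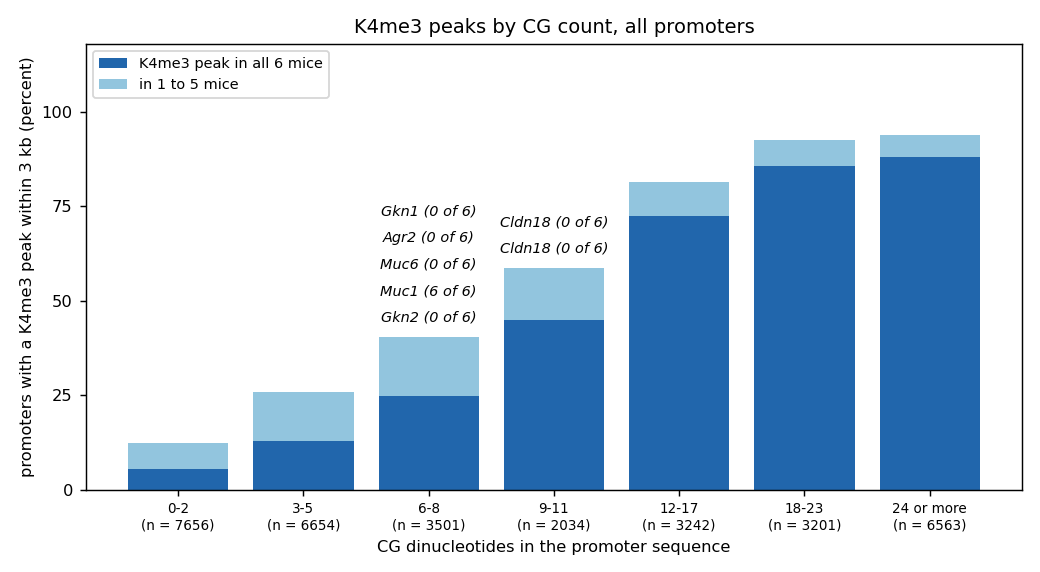
Percent of promoters with a K4me3 peak within 3 kb of the start, in all 6 mice (dark) or in 1 to 5 (light), by the number of CG dinucleotides in the promoter sequence, with the number of promoters below each bar. Members are written above their bin with the number of mice in which they were called; *Muc1*, with 6 of 6, and *Muc6*, with 0 of 6, share a bin where 24.7% of promoters are called in all 6.

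*Tff2* encodes the spasmolytic polypeptide, a trefoil peptide that stabilizes mucus, and lies at chr17:31141049-31144282 on the minus strand (mm10, GENCODE vM21). Promoter K4me3 covered 3933, 3277 and 3803 bp in WT replicates 1 to 3, and 3966, 3874 and 3971 bp in EZ. The genotypes overlap, with the highest values in EZ replicates 1 and 3 and the lowest in WT replicate 2.

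A single broad peak made up this signal. It covered 100% of the gene body in 6 of 6 mice and measured 4116 to 6553 bp (median 6399), a width that 1.3% to 5.07% of the K4me3 peaks of the same library reach. It began 276 to 970 bp before the annotated start and ended 3839 to 5679 bp after it, past the 3' end of the gene, whose length is 3234 bp. EZ mice had 266 bp more promoter K4me3 than WT mice (3937 against 3671 bp, 3 mice each; exact permutation test, two-sided, p = 0.2, adjusted p = 0.942 over 14456 genes). The smallest p that 3 mice against 3 can give is 0.1, so no gene can reach 0.05 in this design. That smallest p was met by 11.3% of the genes tested, and *Tff2* was not among them. Without WT replicate 2 the difference was 69 bp (exact permutation p = 0.4), beside a median difference over all genes tested of 84.7 bp with all mice and 17.8 bp without this one.

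On either side of *Tff2*, the trefoil genes *Tff1* (chr17:31161395-31165277) and *Tff3* (chr17:31125306-31129646), both on the minus strand, had no promoter K4me3 in any mouse. Tff1 is the trefoil peptide of gastric pit cells and Tff3 that of intestinal goblet cells. K4me3 was nonetheless close to both. Small peaks of 770 to 1244 bp lay between *Tff1* and *Tff2* in 5 of 6 mice, at a start of the antisense transcript *Gm15318*, and others of 654 to 1197 bp lay between *Tff2* and *Tff3* in the same 5. Both were missing in WT replicate 2, whose peak over *Tff2* was also the shortest. The nearest K4me3 peak to the *Tff3* start was 4.04 to 10.8 kb away (median 4.27 kb), outside the 3 kb stretch, and a stretch of 5 kb would call *Tff3* in all but WT replicate 2. A further peak, 17226 to 19821 bp upstream of *Tff1*, was present in 5 of 6 mice and again missing in WT replicate 2. The bounds of these groups of peaks, and of those described at the other genes, were set after the peaks were seen. The nearest K27me3 peak to the 3 trefoil genes was 225 to 1485 kb away.

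**Figure D3:**
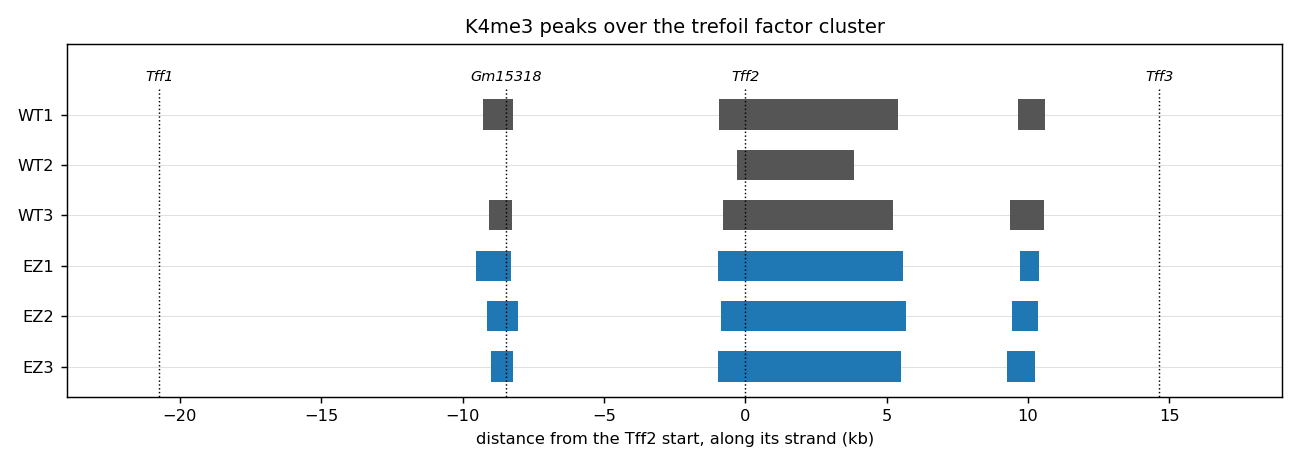
K4me3 peaks (bars, coloured by genotype) in each of 6 mice by distance in kb from the *Tff2* start, along its strand; dotted lines are gene starts. A broad peak of 4116 to 6553 bp lies over *Tff2* in every mouse, no bar touches the *Tff1* or *Tff3* start, and the small bars on either side are absent in WT2.

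*Muc1*, at chr3:89229057-89233381 on the plus strand, encodes a transmembrane mucin that coats the apical surface of ductal and glandular epithelium. Promoter K4me3, over its 3 TSSs, covered 7270, 5199 and 7298 bp in WT, and 7299, 7181 and 7262 bp in EZ. Outside WT replicate 2, the 5 mice lie between 7181 and 7299 bp and the genotypes overlap.

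The *Muc1* peak measured 5199 to 7743 bp (median 7658), a width reached by 0.766% to 2.14% of K4me3 peaks in the same library, and covered 80.3% of the gene body in WT replicate 2 and 100% in the other 5 mice. It began 1727 to 1884 bp before the first start, near the starts of *Mir92b* (1859 bp upstream) and *Mtx1* (1969 bp upstream), so it cannot be given to *Muc1* alone. The difference of EZ from WT was 658 bp (7247 against 6589 bp, exact permutation p = 0.8, adjusted p = 1). It rested on WT replicate 2 and turned to -36.7 bp without it (exact permutation p = 0.7). The 12 calls of *Muc1* and *Tff2* (2 marks in 6 mice) were identical to those of 9900 other protein-coding genes, among them *B3gnt3*, *Cd44* and *Cldn10* of the pathway lists, and 57.4% of all protein-coding genes had K4me3 in all 6 mice.

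**Figure D4:**
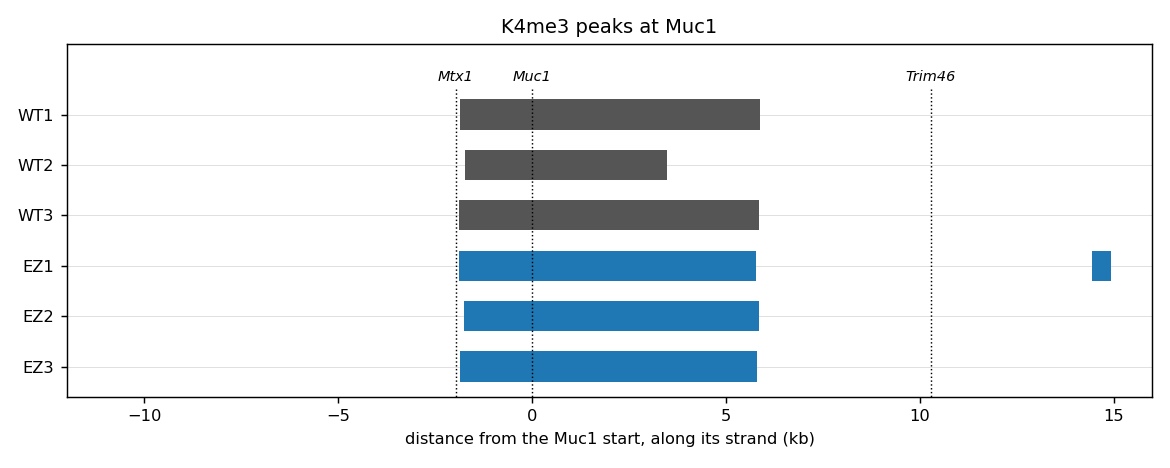
K4me3 peaks in each of 6 mice around the *Muc1* start, by distance in kb along its strand; dotted lines are gene starts and colours are genotypes. A broad bar lies over *Muc1* in every mouse, shortest in WT2 (5199 bp), and its left end comes close to the *Mtx1* start.

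The gastrokines are small secreted proteins of gastric pit cells. *Gkn1* (chr6:87345650-87350942, minus strand) and *Gkn2* (chr6:87373357-87379497, plus strand) start 22.4 kb apart and point away from each other. *Gkn1* promoter K27me3 covered 2202 bp in WT replicate 2 and 0 bp in the other 5 mice. *Gkn2* promoter K27me3 covered 5555 bp in WT replicate 2, 2965 bp in EZ replicate 3 and 0 bp in the other 4. The calls thus differed between mice of the same genotype, and the highest value at both genes came from the library that stood apart.

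In the gene bodies, K27me3 covered 84.9% of *Gkn1* in WT replicate 2 and 23.3% in EZ replicate 2, and 100% of *Gkn2* in WT replicate 2 and 45.8% in EZ replicate 1. Each of the 3 EZ mice had a K27me3 peak within the gastrokine stretch, but at a different place, over *Gkn2* and beyond it in replicate 1, over *Gkn1* in replicate 2 and just before the *Gkn2* start in replicate 3. WT replicates 1 and 3 had none there. Of all protein-coding genes, 33.3% had promoter K27me3 in at least 1 mouse, and of these 34.9% had it in WT replicate 2 alone, as *Gkn1* did.

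The difference of EZ from WT in promoter K27me3 was -863 bp at *Gkn2* (988 against 1852 bp) and -734 bp at *Gkn1* (0 against 734 bp, exact permutation p = 1 and adjusted p = 1 for each), where 2.56% of 7312 genes had the smallest possible p. Without WT replicate 2, *Gkn1* had no promoter K27me3 in any mouse and the difference at *Gkn2* turned to 988 bp (exact permutation p = 1), while the median over all genes tested turned from -498 to 619 bp. The nearest K4me3 peak was 14.8 to 15 kb from the *Gkn1* start, at the start of *Antxr1*, in all 6 mice. A peak of 501 to 628 bp, at or near the smallest width in the lists (501 bp), lay 10900 to 11578 bp after the *Gkn2* start. That is between the starts of *Gkn2* and *Gkn3* (at 15578 bp), and whether it lies within *Gkn3* was not examined. It was called in 3 of 3 EZ and 0 of 3 WT mice. Of 31546 K4me3 regions, made by joining overlapping peaks of the 6 mice, 1.16% had the same split, and this peak was picked after the lists were seen.

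*Muc5ac* (chr7:141788972-141819231, plus strand) and *Muc6* (chr7:141633456-141655319, minus strand) encode the gel-forming mucins of gastric pit and gland cells and lie in 1 cluster with *Muc2* and *Muc5b*. Neither mark was called at either promoter or over either gene body in any mouse. The nearest K4me3 peak was 110 to 112 kb from the *Muc5ac* start and 91.5 to 91.6 kb from the *Muc6* start. The nearest K27me3 peak was 37 to 392 kb from *Muc5ac* and 171 to 526 kb from *Muc6*.

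*Agr2*, at chr12:35992907-36004087 on the plus strand, encodes a protein disulfide isomerase of the endoplasmic reticulum that is needed to fold and secrete mucins. It too had neither mark at its promoter or body in any mouse. The nearest K4me3 peak was 9.13 kb away in WT replicate 2, a peak of the smallest width, and over all 6 mice the median distance was 43.8 kb. K27me3 was nearest at 181 to 562 kb. The 12 calls of *Agr2*, like those of *Muc5ac*, *Muc6*, *Tff1*, *Tff3* and *Cldn18*, were shared with 3809 other protein-coding genes, each counted from 1 member, among them *Agr3*, *Bpifb1* and *Capn9*. At an unknown depth, no call says only that no peak passed the caller's limits. In whole pancreas, fewer cells with a mark and less of it in each cell cannot be told apart.

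*Cldn18* (chr9:99689461-99717267, minus strand, 3 TSSs) encodes a claudin whose gastric isoform seals the junctions of the stomach lining. Neither mark was called at its promoters or body, and K4me3 was nearest at 47.3 to 133 kb. It differed from the mucins in the window that the study used for K27me3, from 100 kb upstream of a TSS to 3 kb downstream, where 4 of 6 mice had a peak.

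In that window K27me3 at *Cldn18* covered 0, 0 and 6648 bp in WT, and 17609, 16319 and 15588 bp in EZ. Every EZ mouse lay above every WT mouse, and the mean was 14289 bp higher in EZ (16505 against 2216 bp, exact permutation p = 0.1, the smallest possible, and adjusted p = 1 over 14223 genes). Over genes with K27me3 in this window, 5.19% had every EZ mouse above every WT mouse, and 5.62% had the smallest possible p in either direction. The difference was 13181 to 16505 bp with any 1 mouse left out, and 13181 bp without WT replicate 2; since the groups do not overlap, its direction could not change. EZ replicate 2, the mouse with Y-gene calls, had 16319 bp, between the other EZ mice. The test in this window was chosen after the values were seen.

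Most of these peaks lay in 2 stretches far from the gene. One, 32313 to 40371 bp upstream, was called in 0 WT and 3 EZ mice. Of 43031 K27me3 regions, made by joining overlapping peaks of the 6 mice, 1.26% had that split. The other, 52606 to 65806 bp upstream, was called in 1 WT and 3 EZ mice. Widths were 6317 to 8059 and 5001 to 7529 bp, where 5001 bp is the smallest width of a K27me3 peak in the lists, so several peaks were at or near the limit of calling.

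**Figure D5:**
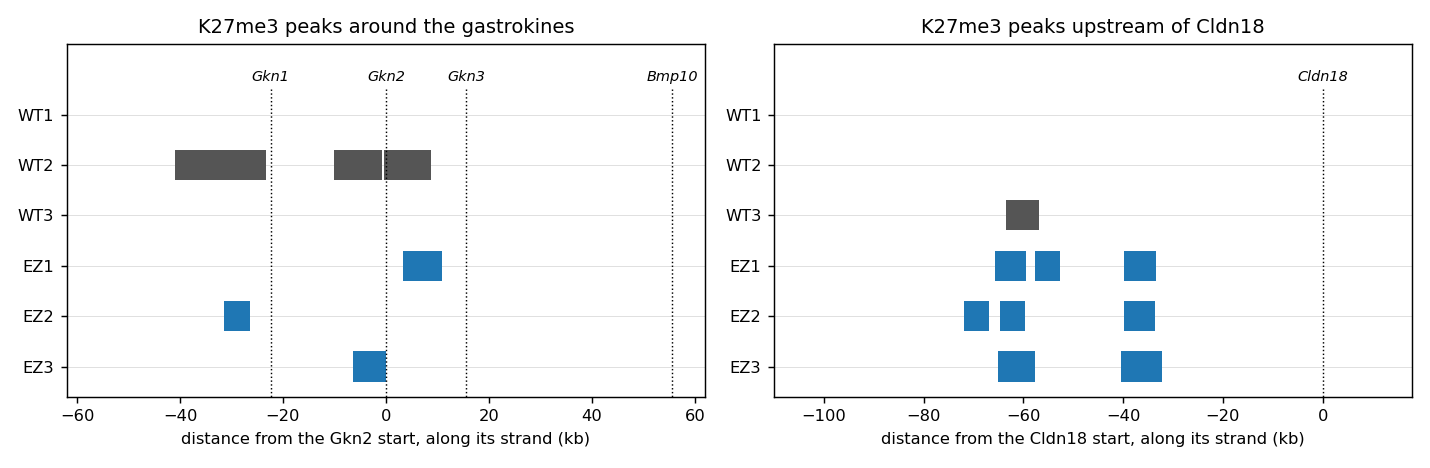
K27me3 peaks in each of 6 mice around the *Gkn2* start (left) and upstream of the *Cldn18* start (right), by distance in kb along each gene's strand; dotted lines are gene starts and colours are genotypes. Left, WT2 has bars over *Gkn1* and *Gkn2* and each EZ mouse has 1 bar at a place of its own. Right, the bars stay at least 32.3 kb from the *Cldn18* start, and WT has 1 bar, in WT3. The nearest peak of WT1, 106 kb upstream, is not drawn.

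The wide window gave K27me3 in all 3 mice at 0 of 10 members in WT and 1 in EZ, *Cldn18*, beside 20.0% and 24.5% of all genes. *Gkn1* was called there in WT replicate 2 (20546 bp) and in EZ replicates 1 and 3 (7594 and 6352 bp). *Gkn2* was called in WT replicate 2 (30358 bp) and in EZ replicates 2 and 3 (5001 and 9228 bp). The difference of EZ from WT was -2200 bp at *Gkn1* and -5376 bp at *Gkn2* (exact permutation p = 1 for each), beside a median of -1685 bp over all genes tested. Without WT replicate 2 the differences turned to 4649 and 4743 bp (exact permutation p = 0.4 for each) and the median to 3115 bp, and without EZ replicate 2 that of *Gkn1* turned to 124 bp (exact permutation p = 1). *Muc1* was called in WT replicate 2 alone, and *Muc5ac*, *Muc6*, *Tff1*, *Tff2*, *Tff3* and *Agr2* in 0 mice.

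No gene reached an adjusted p of 0.05 (Benjamini-Hochberg) in these exact permutation tests, nor could any reach an unadjusted p of 0.05. At the smallest p of 0.1, the test of promoter K4me3 held 1630 genes, 1323 of them higher in EZ, that of promoter K27me3 held 187, 163 of them higher in EZ, and that of the wide window 800, 738 of them higher. Without WT replicate 2, which had the fewest peaks, the first held 1751 genes, 967 of them higher in EZ. Without WT replicate 1, the second held 298 genes, 140 of them higher and 158 lower in EZ, while without WT replicate 2 it held 397, 306 of them higher, and without WT replicate 3 it held 247, 211 of them higher. *Cldn18* in the wide window was the only member among the genes at the smallest p.

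Other genes of the mucous program were read from lists fixed by name. Over all protein-coding genes, K4me3 was called in all 3 mice at 58.0% in WT and 60.8% in EZ, and K27me3 at 5.78% and 7.39%, and the counts of each list stand beside these shares with no test. Of 13 matched pit cell genes, K4me3 was called in all 3 mice at 1 in WT and 3 in EZ, and K27me3 at 1 and 0, with *Muc5ac*, *Tff1*, *Gkn1* and *Gkn2* counted in the list and called at none. The pit genes with K4me3 in 3 EZ mice were *Sult1c2*, *Capn8* and the aspartic protease gene *Ctse*, which had it in 3, 2 and 1 WT mice. The pit gene with K27me3 in 3 WT mice was *Vsig1*, which had it in 2 EZ mice. EZ replicate 2, the mouse with Y-gene calls, had K27me3 at 0 of the 13 pit genes. Of 10 neck cell genes, *Tff2* among them, K4me3 was called at 4 in WT and 5 in EZ, and K27me3 at 0 in both. Of 12 intestinal and other mucin genes, K4me3 was called at 0 in both genotypes, and K27me3 at 0 in WT and 1 in EZ, *Muc16*, which had it in 2 WT mice. The genes named in these lists here, other than the members, were chosen after their values were seen.

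Of 21 mucin assembly genes K4me3 was called at 9 in WT and 10 in EZ, and K27me3 at 0. Foregut and mucous transcription factors had both marks among them, with K4me3 in all 3 mice at 18 and 20 of 26 and K27me3 at 4 and 6 in WT and EZ, where all genes gave 5.78% and 7.39% for K27me3. Among others, *Sox2*, *Foxa1* and *Onecut2* had promoter K27me3 in 6 of 6 mice, and the intestinal factor *Cdx2* and the stomach factor *Barx1* in 2 WT and 3 EZ mice. Of 19 claudins other than *Cldn18*, K4me3 was called at 7 and 8, and K27me3 at 0 and 3, beside the same shares over all genes and with no test of the difference. K27me3 calls in all 3 mice were also more in EZ among markers of other cells, at 0 and 3 of 7 mesenchymal, 2 and 4 of 8 islet, 0 and 1 of 5 tuft and 0 and 1 of 9 leukocyte genes in WT and EZ, and were 0 in both among acinar, duct and endothelial markers. By mouse, in WT replicates 1 to 3 and then EZ replicates 1 to 3, mesenchymal markers with K27me3 numbered 0, 3, 3, 4, 3 and 3. Islet markers numbered 3, 5, 4, 4, 5 and 4, tuft markers 0, 1, 1, 1, 1 and 1, and leukocyte markers 1, 0, 1, 1, 1 and 1. K4me3 in all 3 mice was called at 4 and 7 of 7 duct, 0 and 2 of 8 islet and 0 and 1 of 5 tuft markers, with equal counts in the other marker lists. The part of these markers in the list counts was not tested. *Cldn1* on chromosome 16, a claudin of epithelial barriers, was the only listed gene called in all 3 mice of one genotype and 0 of 3 of the other, with promoter K27me3 in 0 WT and 3 EZ mice. Of the 7312 genes with promoter K27me3 in any mouse, 0.588% had this split. In WT replicate 2 alone, K27me3 was called at 17 of the 26 transcription factors and 8 of the 19 claudins, against 4 to 6 and 1 to 4 in the other 5 mice.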

How the data were processed

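K4me3 and K27me3 peak lists of 6 mice (12 lists) were used, grouped by the genotype in the sample labels. Mice of other genotypes are not reported here. The authors checked reads with FastQC, aligned them to mm10 with Bowtie2 and called peaks per mouse with HOMER in histone mode against local background and that mouse's input. Tool versions are not given in the sources used here. The deposited score is 1 for every peak and carries no information, so precision cannot be derived from depth. Overlaps used GENCODE vM21 on the same build (55413 genes), in Python 3.11.15 and numpy 2.4.6. EZ and WT were compared by a two-sided exact permutation test of mean covered length (20 arrangements, smallest p 0.1), with Benjamini-Hochberg adjustment over all protein-coding genes with a peak in at least 1 mouse. The code was tested on simulated intervals and values. All 10 members are named, and a listed gene when called in all 3 mice of one genotype and none of the other, plus the genes with the most identical calls; other exceptions are stated. Members, lists and tests were chosen with earlier results of these data known. Replicates are labelled as biological. Inputs were not analysed here.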

Additional observations from a re-analysis of the deposited data

How the results depend on the processing

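The number of members with promoter K4me3 in all 3 mice was 2 in WT and in EZ under every alternative run, except that a window of 5 kb added *Tff3* in EZ (3). With a mouse left out the range was 2 to 2. For K27me3 it was 0 (0 to 0 with a mouse left out) except in the 100 kb window, which gave 1 in EZ. The labels do not say that replicate numbers pair the mice, and the mice were treated as unpaired. The correlation of same-numbered deviations over 3 pairs ran from 0.0637 to 0.237 for K4me3 and from -0.0832 to 0.108 for K27me3. It was over 0.1 in 2 pairs for K4me3 and 1 pair for K27me3. Whether mice of the same number share a batch was not tested. With the replicate number as a block the smallest p is 0.25, so 0 genes could reach 0.1 for either mark and the block says nothing about stability; it gave *Muc1* p = 0.75 and *Tff2* p = 0.25 (exact permutation). The number of mice with a peak, in place of covered length, gave 24 genes for K4me3 in place of 1630 and 45 for K27me3 in place of 187. For K27me3, a window of 1 kb gave 102 genes, a minimum width of 10 kb 73, the gene body 318 and all annotated genes 540. With a mouse left out, the genes numbered 796 (without EZ replicate 1) to 2753 (without WT replicate 3) for K4me3, and 197 to 397 for K27me3, where leaving out WT replicate 1 (298, of which 140 were higher and 158 lower in EZ), WT replicate 2 (397) or EZ replicate 2 (302) moved the count. The cause was not tested.

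Of the differences at single members, *Muc1* K4me3 reversed without WT replicate 2 (-36.7 bp, up to 1013 bp without WT replicate 3), as did *Gkn2* K27me3 (988 bp, down to -1852 bp without EZ replicate 3). In the 100 kb window, tested after the data were seen, *Gkn1* reversed without WT replicate 2 (4649 bp) and without EZ replicate 2 (124 bp), with a low of -5624 bp, and *Gkn2* without WT replicate 2 (4743 bp), with a low of -10436 bp. The *Muc1* difference of 658 bp fell to 10.7 bp with the 5' end of the gene alone and 284 bp over the gene body, and was 0 in a window of 1 kb. That of *Tff2* was 653 bp in a window of 5 kb in place of 266 bp, and 0 over the gene body. At *Gkn1* and *Gkn2* a window of 1 kb gave -67.3 and -197 bp in place of -734 and -863 bp, and a minimum width gave 0 at *Gkn2*. By number of mice with a peak, *Muc1*, *Tff2* and *Gkn2* differed by 0. *Tff2* stayed positive or at 0 in every alternative run. Depth is unknown, so a missing peak may be a peak below the caller's limit.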
